A study of Mus musculus with 31 samples.

Results

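The comparison set the hearts of 6 female mice against those of 4 male mice, all homozygous for the Met form of the brain-derived neurotrophic factor gene (Met/Met). These were 10 of the 31 hearts of the series, chosen by the sex and the genotype given in the sample titles. The other hearts came from 11 Val/Val and 10 Val/Met mice of both sexes and are used below only to show whether a sex difference in Met/Met hearts differed from that in the other genotypes. Every mouse was 8 weeks old and RNA was taken from the whole heart. Both Met/Met groups carried the same human knock-in allele, in which valine is replaced by methionine in the part of the protein that is cut off during maturation. The labels tag every group, Val/Val included, with the human transgene, whereas the methods of the study state that the controls expressed the mouse gene. Breeders were heterozygous and littermates were used. The libraries came from 3 sequencing projects. The first held 3 female and 3 male Met/Met hearts, the second held the remaining 1 male heart and the third held the remaining 3 female hearts.

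Brain-derived neurotrophic factor is a secreted growth factor that signals through the receptor tyrosine kinase TrkB, while its precursor binds the low-affinity neurotrophin receptor together with sortilin. The Met form is sorted poorly into the regulated secretory pathway. In the heart the factor acts on cardiomyocytes, on the endothelium and on the nerves that reach them. The adult heart makes most of its ATP in mitochondria, mainly from fatty acids, and the relaxation of each beat depends on the return of calcium to the sarcoplasmic reticulum and its export from the cell.

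The deposited values of the 10 hearts summed to between 29106500 and 29512000, and their medians lay between 472 and 478. These values are normalised by the authors and are not reads, so the number of reads behind a value is unknown. The 4 X-linked genes used to check the sex of the mice (Kdm6a, Kdm5c, Eif2s3x and Ddx3x, of which both copies are active in females) were higher in all 6 female than in all 4 male hearts. Kdm6a had 1476 to 1856 in the female and 762 to 953 in the male hearts. The 10 cardiomyocyte markers all lay among the 46 highest of 13840 genes, led by Ttn and Myh6. For every tested gene, male replicate 4, the only Met/Met heart of the second project, lay within 1.38e-05 of the mean of its group on the log2 scale. The median distance of the other 3 male hearts was 0.0925. The values of male replicate 4 therefore carry no spread of their own. Male Val/Val replicate 3 and male Val/Met replicate 4, of the same project, likewise lay at the means of their groups in the averages of the gene lists. They too count as hearts in the contrasts between genotypes. Among the other genotypes, whose hearts share the estimate of the spread, male Val/Val replicate 4 summed to 9.19e+12 and female Val/Met replicate 5 to 66645800. The fit on Met/Met hearts alone called 785 genes, of which 605 were among the 1027 called in the main fit below. The highest genes moved in shared steps: mt-Co1 and Ttn each had 1 value in all 6 female hearts. P-values measure the spread between these hearts, and in whole hearts fewer cells of a type and less RNA per cell cannot be told apart.

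A total of 13031 autosomal genes had a mean of at least 29 deposited units and were tested with limma, with 1 mean per group and project so that the project was counted in the 17 residual degrees of freedom. At a Benjamini-Hochberg adjusted p under 0.05, which is what "called" means in the following, 345 genes (2.65%) were higher and 682 (5.23%) were lower in female than in male Met/Met hearts. Most differences were modest, since the called genes had a median absolute log2 difference of 0.38 and 823 of the 1027 lay under 1.5-fold. By the rule of an unadjusted p under 0.05 with at least 1.5-fold, 339 genes (2.60%) were higher and 255 (1.96%) lower. Every female heart lay above every male heart for 698 genes (5.36%) and below for 1207 (9.26%), and 827 of the called genes had no such overlap. Male replicate 4 lies at the mean of its group, so it had no part in whether the groups overlapped. The median log2 difference of all tested genes was -0.018.

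The number of called genes rested on single hearts. It fell to 253 without male replicate 2, to 238 without male replicate 3, to 349 without male replicate 4, to 403 without female replicate 1, to 500 without female replicate 3, to 529 without female replicate 5 and to 507 without female replicate 6, and it was 2134 without female replicate 2. All 1027 genes kept their direction in each of these fits. For the 827 of them without overlap this was fixed in advance, since leaving out a heart cannot reverse groups that do not overlap. The others had been chosen by their p in these same hearts. Without male replicate 4 the direction of every gene was given, since it lies at the mean of its group and leaving it out hardly changes a log2 difference. The main fit still counts it as a heart, so the SEs and p-values given here are smaller than the other male hearts alone would give. With those alone, 349 genes were called. Within the first project, 3 female against 3 male hearts, the log2 differences were the same because the batch means of a group are equal in the deposited values, and 2 genes were called. Of the 86 called genes named below, 32 stayed called whichever heart was left out. Of the 100 named genes, calls were lost for 51 without male replicate 3, 42 without male replicate 2, 41 without male replicate 4, 38 without female replicate 1, 31 without female replicate 6, 30 without female replicate 5, 24 without female replicate 3, 19 without male replicate 1 and 5 without female replicate 4. Where a gene lost its call, the adjusted p given below is that of the fit in which it was highest. Many of these genes lost it in other fits too. Of the 10 fits, Cd68, Npr3 and Pde3a lost it in 9. Gm14440, Fcer1g, Laptm5, Acta1, Tnnc1, Tjp1, Hsd17b4 and Adra1a lost it in 8.

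In the following, the values of a gene are the lowest, the median and the highest of the 6 female hearts and those of male replicates 1, 2, 3 and 4, all in deposited units, and a log2 difference is female minus male. Genes were positioned on GRCm38. Counts of called members of a list stand against 2.65% of all genes called higher and 5.23% called lower, also where these shares are not repeated.

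The largest fall by size among protein-coding genes whose hearts did not overlap was that of C7, the complement component that joins the membrane attack complex (chr15:4988762-5063740). C7 had 47.1, 54.1 and 75.8 in the female hearts and 274, 246, 201 and 238 in the male hearts. No female heart came near the lowest male heart, and the log2 difference was -2.06 ± 0.20 (SE, adjusted p = 1.29e-05). Hsd11b1, the enzyme that regenerates active glucocorticoid from its inactive form (chr1:193221634-193264075), had 59.2, 88.7 and 119.8 in the female hearts and 202, 221, 236 and 219 in the male hearts, a log2 difference of -1.32 ± 0.16 (SE, adjusted p = 0.000204). The sex difference was called in the other genotypes too, for C7 at -1.92 ± 0.19 and -1.90 ± 0.20 (log2 ± SE) in Val/Val and Val/Met hearts and for Hsd11b1 at -1.08 ± 0.15 and -1.04 ± 0.16.

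The other 8 of the 10 largest falls were of genes at low levels, the highest value among them being 222 of Marcksl1. Lvrn, which encodes a membrane aminopeptidase, had 25.4, 42.8 and 64.1 in the female hearts and 133, 146, 88.5 and 119.9 in the male hearts, a difference of -1.57 ± 0.29 (SE, adjusted p = 0.00599). Cdh4, the retinal cadherin, had 21.8, 36.7 and 62.8 in the female hearts and 90.3, 106, 111 and 102 in the male hearts, a difference of -1.46 ± 0.30 (SE, adjusted p = 0.00944). Nutf2, which carries Ran into the nucleus, had 13.5, 21.99 and 25.9 in the female hearts and 41.8, 68.0, 59.6 and 55.3 in the male hearts, a difference of -1.45 ± 0.27 (SE, adjusted p = 0.00588). In all 3 every male heart lay above every female heart. Marcksl1, an actin-binding protein, had 55.1, 66.0 and 89.9 in the female hearts and 113, 168, 222 and 162 in the male hearts, a difference of -1.28 ± 0.22 (SE, adjusted p = 0.00421). D7Ertd443e differed by -1.47 ± 0.25 (SE, adjusted p = 0.00391) and Cacng6, a calcium channel gamma subunit, by -1.28 ± 0.31 (SE, adjusted p = 0.0188). The remaining pair is best known from lymphocytes, although whole hearts do not show which cells held the RNA. Gpr183, an oxysterol receptor that guides lymphocyte migration, differed by -1.24 ± 0.36 (SE, adjusted p = 0.0389). Blnk, the adaptor of the B cell receptor, differed by -1.202 ± 0.21 (SE, adjusted p = 0.00449). The call of Gpr183 was lost in 7 of the 10 fits that left out a heart, with an adjusted p of up to 0.126 without male replicate 3, and that of Cacng6 in 1, with 0.0757 without male replicate 3.

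Among the rises, Ptn, which encodes the heparin-binding growth factor pleiotrophin (chr6:36714929-36810220), had 78.6, 92.8 and 149 in the female hearts and 32.3, 49.2, 19.8 and 31.5 in the male hearts. Its log2 difference was 1.67 ± 0.23 (SE, adjusted p = 0.000657), and in Val/Val hearts it was 1.44 ± 0.21. Negr1 and Lsamp, cell adhesion molecules of the same IgLON family best known from neurons, were both higher in every female heart. Negr1 (chr3:156561794-157316445) had 139.7, 184 and 206 in the female hearts and 84.2, 84.8, 79.1 and 82.7 in the male hearts, a difference of 1.10 ± 0.13 (SE, adjusted p = 0.000204), and Lsamp (chr16:39984361-42181679) had 196, 218 and 227 in the female hearts and 101, 127, 101 and 109 in the male hearts, a difference of 0.97 ± 0.15 (SE, adjusted p = 0.00189).

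Nr5a2, a nuclear receptor of sterol and bile acid metabolism, had 26.7, 43.4 and 67.8 in the female hearts and 17.4, 16.4, 17.1 and 17 in the male hearts, a difference of 1.38 ± 0.24 (SE, adjusted p = 0.00422). Pirt, a regulator of TRP channels in sensory nerve, had 430.5, 525 and 666 in the female hearts and 275, 292, 327 and 297 in the male hearts, a difference of 0.83 ± 0.13 (SE, adjusted p = 0.00295). Dio2, the deiodinase that makes active thyroid hormone, had 71.4, 80.4 and 83.9 in the female hearts and 63.1, 46.1, 30.6 and 44.6 in the male hearts, a difference of 0.81 ± 0.22 (SE, adjusted p = 0.0295). The male hearts of Nr5a2 were nearly equal, while those of Dio2 spread widely. Sema3d, a secreted semaphorin that guides axons and vessels, differed by 0.97 ± 0.25 (SE, adjusted p = 0.0262), and Dzank1 by 0.86 ± 0.19 (SE, adjusted p = 0.0148). Gm2026 and Gm14440, which lie near each other on chromosome 2, differed by 1.74 ± 0.38 (SE, adjusted p = 0.0133) and 1.63 ± 0.47 (SE, adjusted p = 0.0393), and both are uncertain because they belong to a family of closely similar genes among which reads may be split. Calls were lost without male replicate 3 for Dio2, Sema3d and Gm2026 (adjusted p = 0.114, 0.0829 and 0.0531) and without male replicate 2 for Gm14440 (0.132).

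**Figure D1:**
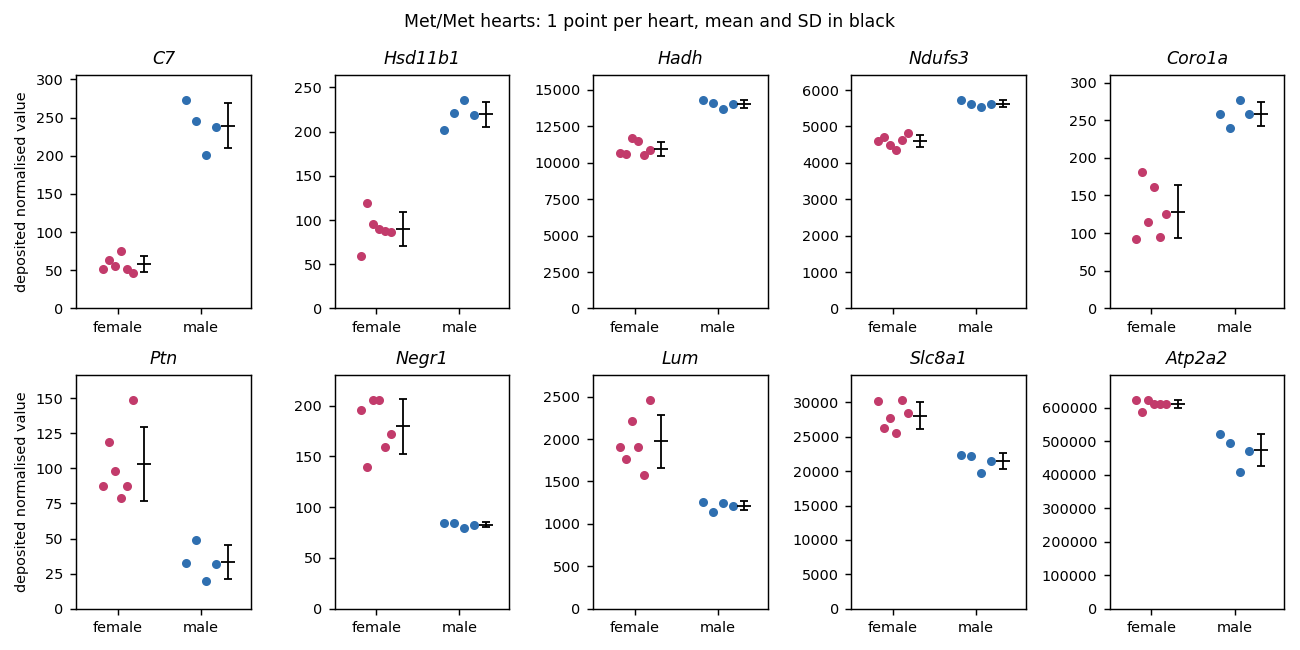
Deposited normalised value (y axis, from 0) of 10 genes in the 6 female and 4 male Met/Met hearts (x axis), 1 point per heart, with the group mean and SD in black. C7, Hsd11b1, Hadh, Ndufs3 and Coro1a were lower in every female than in every male heart and the other 5 were higher, although Atp2a2 missed the threshold with an adjusted p of 0.0532.

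Among genes of mitochondrial energy supply, 36 of 73 of the respiratory chain were called lower in female hearts and 0 of 25 of the citrate cycle and ketone use. The respiratory chain carries electrons through complexes I to IV and drives ATP synthesis at complex V. None of its tested genes was called higher, and 5.23% of all genes were called lower and 2.65% higher. The list had a median log2 difference of -0.27 against -0.018 over all genes. The counts were 25 of 35 for complex I, 0 of 4 for complex II, 2 of 9 for complex III, 4 of 10 for complex IV and 5 of 14 for complex V. All 36 falls were shallow, between -0.18 and -0.43. In Val/Val and Val/Met hearts the medians of the same 73 genes were -0.0033 and 0.058. In the contrasts between genotypes given below, 0 of the 73 were called against Val/Val and 5 against Val/Met hearts.

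Ndufs3, a core subunit of complex I, had 4348, 4624 and 4822 in the female hearts and 5739, 5624, 5530.1 and 5630.3 in the male hearts, a difference of -0.29 ± 0.056 (SE, adjusted p = 0.00726). Ndufa3, an accessory subunit, had 3328, 3410.1 and 3738 in the female hearts and 4491, 4787, 4731 and 4668 in the male hearts, a difference of -0.43 ± 0.086 (SE, adjusted p = 0.0092). Ndufs7, which holds an iron-sulfur cluster near the site where ubiquinone is reduced, had 4659.6, 4795 and 4841 in the female hearts and 5661, 6303, 6292 and 6078 in the male hearts, a difference of -0.35 ± 0.072 (SE, adjusted p = 0.0104). The groups did not overlap for any of these. The accessory subunits Ndufs5, Ndufc1 and Ndufb5 differed by -0.32 ± 0.064 (SE, adjusted p = 0.00887), -0.35 ± 0.071 (SE, adjusted p = 0.00944) and -0.26 ± 0.055 (SE, adjusted p = 0.0104). These 6 complex I genes stayed called whichever heart was left out. The sum over all 73 genes was 751934 to 760955 in the female hearts and 804952 to 850662 in the male hearts. The count of called members was 14 without male replicate 2, 12 without male replicate 3 and 22 without male replicate 4, and 39 without female replicate 2.

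Respiratory chain genes are read from short transcripts, and the sex difference moved with transcript length over the whole table. The protein-coding genes were split into 5 equal classes by the median length of their transcripts. In the shortest class (195 to 1610.5 bases) the median log2 difference was -0.16 and 337 genes were called lower against 18 higher. In the longest class (4543 bases and over) it was 0.072, with 22 called lower and 115 higher, and the classes between had medians of -0.067, -0.020 and 0.015. In Val/Val hearts the shortest and the longest class had -0.014 and 0.012, and in Val/Met hearts 0.0057 and -0.019. Of the 73 respiratory chain genes, 60 belonged to the shortest class. The median log2 level of the shortest less that of the longest class, each gene set against its mean over all hearts, was -0.093 to 0.018 in female and 0.14 to 0.21 in male Met/Met hearts. When genes of like length were centred in each heart, a setting chosen after the data were seen, 678 genes were called, 397 lower and 281 higher. The respiratory chain then had 10 called lower and a median of -0.11, against 0.0018 over all genes. The part of transcript length in the result was not tested further.

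Ribosomal proteins, whose transcripts are also short (67 of 72 in the shortest class), had 11 members called lower and 0 higher, with a median of -0.17. They divided into 3 of 28 tested proteins of the small and 8 of 43 of the large subunit. Rps28 had 236, 263 and 296 in the female hearts and 389, 445, 407 and 413 in the male hearts, a difference of -0.64 ± 0.12 (SE, adjusted p = 0.00727), and Rpl38 had 119, 131 and 149 in the female hearts and 177, 245, 215 and 210.4 in the male hearts, a difference of -0.68 ± 0.17 (SE, adjusted p = 0.0233). Rpl37a differed by -0.38 ± 0.084 (SE, adjusted p = 0.0129) and Rpl10a by -0.35 ± 0.073 (SE, adjusted p = 0.0107). Ribosomal protein genes have many near-identical copies in the genome, so these values are uncertain. With genes of like length centred, 3 members were called lower and the median was -0.028, and 3, 2 and 3 were called without male replicates 2, 3 and 4 in turn. Without female replicates 1, 3, 4 and 5 there were 4, 6, 7 and 7, and without female replicate 2 there were 23. The adjusted p of Rpl38 was 0.0843 without male replicate 2 and that of Rpl37a 0.0577 without male replicate 3.

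**Figure D2:**
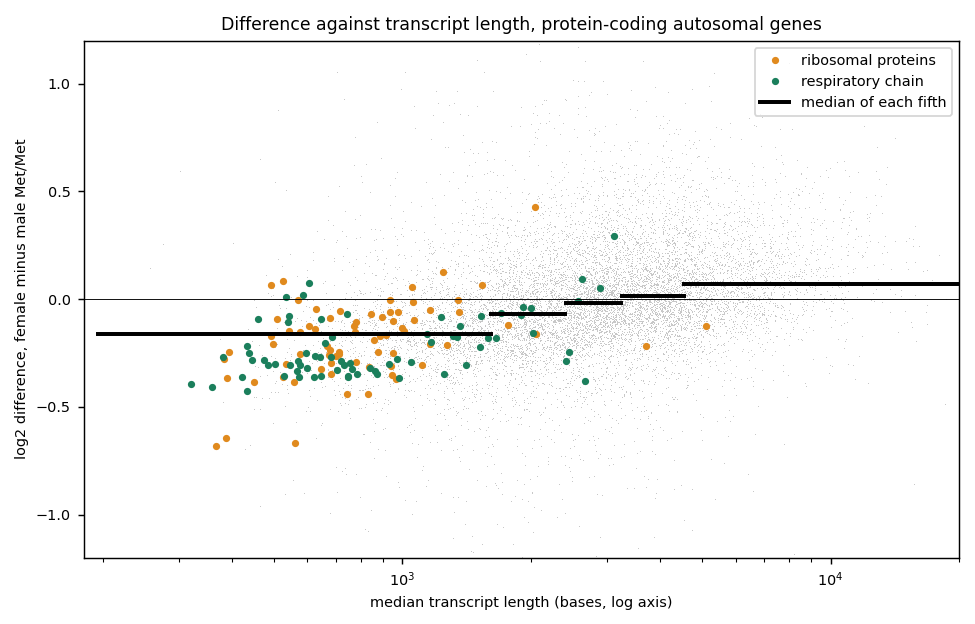
Log2 difference, female minus male Met/Met (y axis), against median transcript length in bases (x axis, log scale) for protein-coding autosomal genes (grey). Green points are respiratory chain genes, orange points ribosomal proteins, and black bars the median of each of the 5 length classes, which went from -0.16 in the shortest to 0.072 in the longest.

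Fatty acid use, which feeds the respiratory chain, had 7 of 48 members called lower and 0 higher (median -0.095), against 5.23% and 2.65% of all genes. Hadh, the hydroxyacyl-CoA dehydrogenase of beta-oxidation (chr3:131233419-131272101), had 10539.9, 10754 and 11676 in the female hearts and 14332, 14106, 13682 and 14038 in the male hearts, a difference of -0.36 ± 0.055 (SE, adjusted p = 0.00208) that held whichever heart was left out. Other steps of the same pathway were lower in female hearts too. Acads (short-chain acyl-CoA dehydrogenase) differed by -0.32 ± 0.087 (SE, adjusted p = 0.0318), Acaa2 (thiolase) by -0.27 ± 0.073 (SE, adjusted p = 0.031) and Eci1 (enoyl-CoA isomerase) by -0.28 ± 0.069 (SE, adjusted p = 0.0217). Slc25a20, the carrier of acylcarnitine into mitochondria, had 3234, 3368 and 3687 in the female hearts and 4239, 4088, 4138 and 4154 in the male hearts, a difference of -0.28 ± 0.08 (SE, adjusted p = 0.0396). Dgat2, which makes triglyceride, differed by -0.34 ± 0.081 (SE, adjusted p = 0.0174). The last 5 lost their call in at least 1 fit without male replicate 3, where their adjusted p-values were 0.0965, 0.078, 0.0584, 0.1 and 0.0622. In the fit with genes of like length centred, 3 members of the list were called lower. The list had 2, 1 and 2 called lower without male replicates 2, 3 and 4, and 2, 4 and 3 without female replicates 1, 5 and 6.

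Glucose use had 6 of 38 members called lower and 1 higher (median -0.11), against 5.23% and 2.65% of all genes. Txnip, which restrains glucose uptake (chr3:96557957-96561883), had 11228, 12222 and 15887 in the female hearts and 21982, 16818, 24329.6 and 20796 in the male hearts, a difference of -0.68 ± 0.15 (SE, adjusted p = 0.0131). Pgam2, the muscle form of phosphoglycerate mutase, had 5389.7, 5616 and 6457 in the female hearts and 7344, 8084, 7675 and 7695 in the male hearts, a difference of -0.42 ± 0.088 (SE, adjusted p = 0.0109). Gapdh differed by -0.42 ± 0.12 (SE, adjusted p = 0.0343), Ldhb by -0.20 ± 0.052 (SE, adjusted p = 0.026) and Pdk2, a kinase that inhibits pyruvate dehydrogenase, by -0.25 ± 0.069 (SE, adjusted p = 0.0333). Gapdh has many processed copies in the genome and is uncertain. The member higher in female hearts was Irs1, the docking protein of the insulin receptor, with 5021, 5307 and 5779.8 in the female hearts and 4805, 3931, 3869 and 4181 in the male hearts and a difference of 0.35 ± 0.079 (SE, adjusted p = 0.0139). The difference of Txnip was also present in the other genotypes (-0.61 ± 0.14 in Val/Val and -0.71 ± 0.15 in Val/Met hearts, SE). Without male replicate 3 the adjusted p of Txnip was 0.0577, that of Irs1 0.0606 and that of Ldhb 0.0834, and without male replicate 2 that of Pdk2 was 0.107 and that of Gapdh 0.105. The list had 2, 1 and 2 members called lower without male replicates 2, 3 and 4, 3, 3 and 2 without female replicates 1, 5 and 6, and 3 with genes of like length centred. None of the 25 genes of the citrate cycle and ketone use was called by limma (median -0.063). At an unadjusted p under 0.05, 6 of them were lower in female hearts and 0 higher. Of all 13031 genes, 2213 were lower and 1686 higher at that p.

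**Figure D3:**
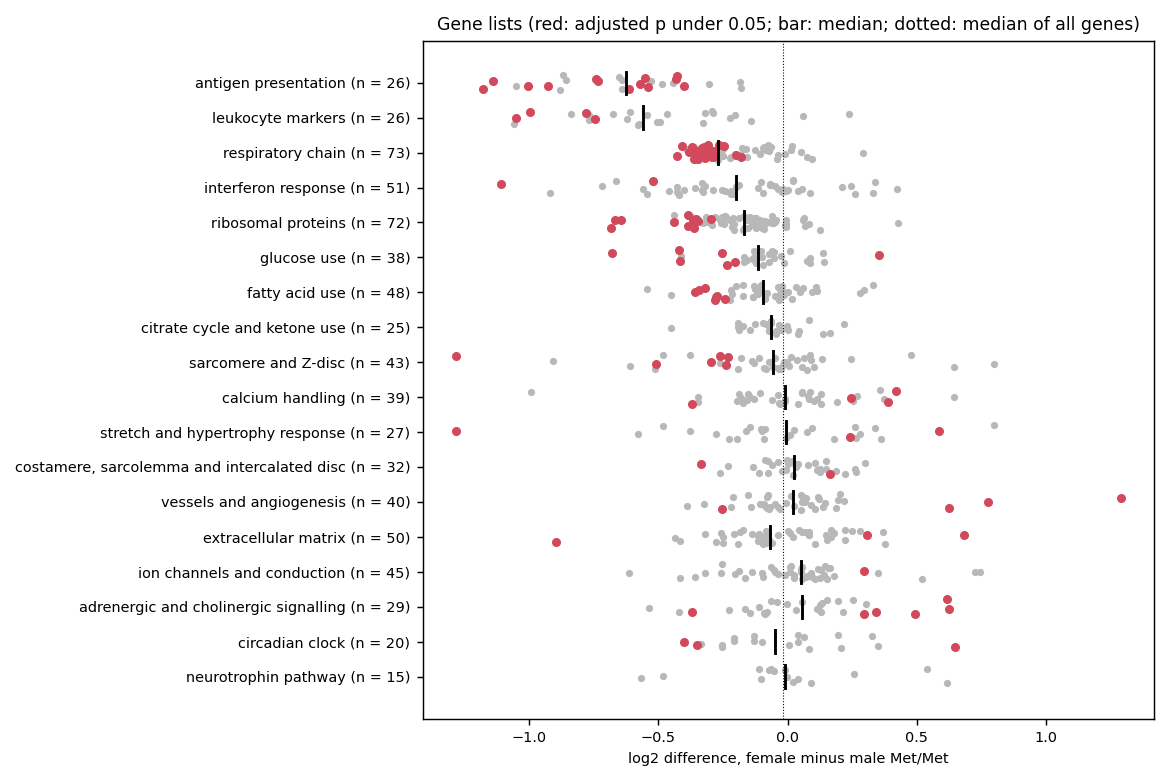
Log2 difference, female minus male Met/Met (x axis), of the tested members of 18 gene lists (y axis, with the number tested). Red points passed an adjusted p of 0.05, black bars are list medians and the dotted line is the median of all genes. Red points lie left of 0 for antigen presentation, leukocyte markers, the respiratory chain, ribosomal proteins and fatty acid use, and on both sides for calcium handling, vessels and adrenergic signalling.

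Of 43 sarcomere and Z-disc genes, 6 were called lower and 0 higher (median -0.055), against 5.23% and 2.65% of all genes. With genes of like transcript length centred, 1 was called lower and 2 higher (median -0.017). Without male replicates 2, 3 and 4 in turn 2, 2 and 2 were called lower, without female replicates 1, 5 and 6 2, 2 and 3, and without female replicate 3 4, while without female replicate 2 there were 9 lower and 2 higher. Trim54, a ubiquitin ligase that binds titin and microtubules, had 1571, 1944 and 2219 in the female hearts and 2672, 2693, 2718 and 2694 in the male hearts, a difference of -0.51 ± 0.092 (SE, adjusted p = 0.00518), and Cryab, the small heat shock protein that guards desmin and titin, had 13822, 15229 and 16124 in the female hearts and 17466, 19538, 18579 and 18509 in the male hearts, a difference of -0.30 ± 0.06 (SE, adjusted p = 0.0094). Both held whichever heart was left out. Acta1, skeletal alpha-actin, which the adult heart raises under load, had 1062, 1618 and 3908 in the female hearts and 5635, 4119.7, 3701 and 4413 in the male hearts, a difference of -1.28 ± 0.36 (SE, adjusted p = 0.0343), and female replicate 2 lay above the lowest male heart. Tnnc1 (cardiac troponin C) differed by -0.26 ± 0.073 (SE, adjusted p = 0.0362), Lmod2 (which lengthens thin filaments) by -0.23 ± 0.059 (SE, adjusted p = 0.0257) and Trim63 (a ubiquitin ligase of muscle wasting) by -0.24 ± 0.068 (SE, adjusted p = 0.0386). Without male replicate 2 the adjusted p-values of these 4 genes were 0.0818, 0.118, 0.0776 and 0.114.

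Myl2, the ventricular myosin light chain, had 67253, 73212 and 74159 in the female hearts and 79561, 76300.3, 79561 and 78459 in the male hearts. Its groups did not overlap, and its difference of -0.13 ± 0.066 (SE, adjusted p = 0.188) did not pass the threshold. Tcap, which anchors titin in the Z-disc, had 13686, 14350 and 14875 in the female hearts and 12343, 17440, 14224 and 14521 in the male hearts. The male hearts spanned the female ones and the difference was -0.016 ± 0.09 (SE, adjusted p = 0.922).

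Calcium handling genes were called in both directions, 3 of 39 higher and 1 lower (median -0.0086), against 2.65% and 5.23% of all genes. Slc8a1, the sodium-calcium exchanger that exports calcium in diastole (chr17:81373105-81738377), had 25522, 28111 and 30362 in the female hearts and 22415, 22166, 19807 and 21429 in the male hearts, a difference of 0.39 ± 0.089 (SE, adjusted p = 0.0159). Itpr1, a calcium release channel, differed by 0.24 ± 0.064 (SE, adjusted p = 0.0285), and Cacna1g, a T-type calcium channel of pacemaker tissue, by 0.42 ± 0.11 (SE, adjusted p = 0.0291). S100a1, a calcium sensor that raises the activity of the calcium pump and release channel, went the other way with 5268, 5791 and 6389 in the female hearts and 6973, 8000.1, 7657 and 7531 in the male hearts and a difference of -0.37 ± 0.07 (SE, adjusted p = 0.00659). Of these 4, S100a1 held whichever heart was left out. Without male replicate 3 the adjusted p of Slc8a1 was 0.066 and that of Cacna1g 0.0737, and without male replicate 2 that of Itpr1 was 0.0752.

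Atp2a2 encodes the pump that returns calcium to the sarcoplasmic reticulum. It had 588745, 611729 and 623555 in the female hearts and 522819, 493633, 408480 and 472399 in the male hearts, so that every female heart lay above every male heart. Its log2 difference of 0.37 ± 0.12 (SE, adjusted p = 0.0532) missed the threshold, and the adjusted p ran from 0.0434 to 0.174 over the fits that left out a heart. Atp2a2 belongs to the highest genes of the table, and female replicates 4, 5 and 6 share the value 611729. Asph, which includes the junctional protein junctin, differed by 0.27 ± 0.086 (SE, adjusted p = 0.0538). In Val/Val and Val/Met hearts the sex difference of Atp2a2 was 0.014 ± 0.11 and 0.028 ± 0.12 (SE), and its difference from that in Met/Met hearts was 0.36 ± 0.16 (SE, adjusted p = 0.324) and 0.34 ± 0.17 (SE, adjusted p = 0.364).

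Of 27 genes of the response to stretch, 2 were called higher and 1, Acta1, lower. Nppb, which encodes the B-type natriuretic peptide, had 1336, 2185 and 6209 in the female hearts and 3296, 2002, 2736 and 2624 in the male hearts. Female replicate 2 held more than any male heart, 2 others lay within the male range and 3 below it, so the difference of -0.16 ± 0.30 (SE, adjusted p = 0.743) was within the spread. Npr3, the clearance receptor of these peptides, had 1079.6, 1377 and 1637 in the female hearts and 888, 1002, 854 and 912 in the male hearts, a difference of 0.58 ± 0.18 (SE, adjusted p = 0.0456), and Myocd, the coactivator of smooth and cardiac muscle genes, differed by 0.24 ± 0.068 (SE, adjusted p = 0.036). Without male replicate 3 the adjusted p of Npr3 was 0.123 and that of Myocd 0.0804.

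Adrenergic and cholinergic signalling had 5 of 29 members called higher and 1 lower (median 0.054), against 2.65% and 5.23% of all genes. Rgs2, which shortens the signal of Gq-coupled receptors, had 1337, 1531 and 2124 in the female hearts and 1186, 1034, 981 and 1064 in the male hearts, a difference of 0.62 ± 0.16 (SE, adjusted p = 0.0295), and Rgs6, which shortens the muscarinic signal to the pacemaker, had 878, 1033 and 1218 in the female hearts and 544, 991, 762 and 743 in the male hearts, a difference of 0.49 ± 0.13 (SE, adjusted p = 0.0257). Rgs5, a regulator of G proteins in pericytes (chr1:169655501-169695813), had 16728, 22665 and 27280 in the female hearts and 15669, 13619.6, 14378 and 14531 in the male hearts, a difference of 0.62 ± 0.15 (SE, adjusted p = 0.0161). These 3 genes damp receptor signals. Grk5, a kinase that desensitises the beta receptors, differed by 0.34 ± 0.091 (SE, adjusted p = 0.0297) and Pde3a, which breaks down cyclic AMP, by 0.29 ± 0.088 (SE, adjusted p = 0.0446). The member that was lower in female hearts was Adra1a, an alpha receptor, at -0.37 ± 0.11 (SE, adjusted p = 0.0467). Rgs2 differed between the sexes in Val/Val and Val/Met hearts by 0.88 ± 0.15 and 0.97 ± 0.16 (SE), and Rgs5 by 0.0043 ± 0.14 and -0.023 ± 0.15. All 6 calls were lost without male replicate 2 or 3, the highest adjusted p-values being 0.0944 for Rgs2, 0.066 for Rgs6, 0.061 for Rgs5, 0.0948 for Grk5, 0.14 for Pde3a and 0.143 for Adra1a.

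Of 45 ion channel and conduction genes 1 was called, Gjc1, a gap junction connexin of the conduction system. It had 705, 744 and 811 in the female hearts and 596, 611, 622 and 609.6 in the male hearts, a difference of 0.30 ± 0.059 (SE, adjusted p = 0.0092) that held whichever heart was left out, beside 0.38 ± 0.056 in Val/Val and 0.35 ± 0.059 in Val/Met hearts (SE). Of 32 genes of the costamere, sarcolemma and intercalated disc, Sgca, a sarcoglycan of the dystrophin complex, was called lower at -0.33 ± 0.07 (SE, adjusted p = 0.0104) and Tjp1, a junction scaffold, higher at 0.16 ± 0.047 (SE, adjusted p = 0.0378). Without male replicate 2 the adjusted p of Tjp1 was 0.0836.

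In the vessels 3 of 40 genes were called higher and 1 lower (median 0.020), against 2.65% and 5.23% of all genes. Angpt1, the ligand of the endothelial receptor Tie2 that steadies vessels, had 956, 2215 and 3306 in the female hearts and 1196, 629.8, 758 and 829.5 in the male hearts, a difference of 1.29 ± 0.33 (SE, adjusted p = 0.0258). Acta2, smooth muscle actin, had 2308, 3085 and 5475 in the female hearts and 1712, 2062, 2098 and 1949 in the male hearts, a difference of 0.77 ± 0.21 (SE, adjusted p = 0.0338), and the third higher gene was Rgs5. Vegfb, a growth factor of the endothelium that governs its fatty acid uptake, was lower at -0.25 ± 0.067 (SE, adjusted p = 0.0295). Female replicate 2 had the lowest Angpt1 value of its group and lay below male replicate 1. Without male replicate 2 the adjusted p was 0.0882 for Angpt1, 0.079 for Acta2 and 0.1 for Vegfb.

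The extracellular matrix list had 2 of 50 members called higher and 1 lower (median -0.066), against 2.65% and 5.23% of all genes. Lum, a proteoglycan that orders collagen fibrils (chr10:97565128-97572703), had 1580.3, 1905 and 2461 in the female hearts and 1257, 1143, 1246 and 1214 in the male hearts, a difference of 0.68 ± 0.09 (SE, adjusted p = 0.000534) that held whichever heart was left out and was 0.59 ± 0.084 (SE) in Val/Val hearts. Timp3, an inhibitor of matrix proteases, differed by 0.31 ± 0.088 (SE, adjusted p = 0.0382), and Ltbp2, a microfibril protein that binds fibrillin, by -0.90 ± 0.23 (SE, adjusted p = 0.0257). Without male replicate 2 the adjusted p of Timp3 was 0.0943, and without male replicate 3 that of Ltbp2 was 0.0998.

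Of 26 tested genes of antigen presentation, 13 were called lower in female than in male Met/Met hearts and 0 higher, against 5.23% and 2.65% of all genes. In 12 of the 26 every female heart lay below every male heart, against 9.26% of all genes. The log2 differences lay between -0.18 and -1.18, with a median of -0.63. Major histocompatibility class I molecules show peptides from inside the cell and class II molecules show peptides taken up by specialised cells. Among the called genes were 6 of 8 class I heavy chains, 2 of 6 class II genes (H2-Ab1 and Cd74) and 3 of 8 genes that supply or load peptides, along with B2m and Ctss.

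B2m, the light chain shared by all class I molecules (chr2:122147686-122153083), had 2363, 2579 and 3573 in the female hearts and 4179, 4358, 5281 and 4582 in the male hearts, a difference of -0.74 ± 0.18 (SE, adjusted p = 0.019). Psme1, a subunit of the proteasome activator (chr14:55578123-55581529), had 1379.6, 1499.9 and 1519 in the female hearts and 1821, 2065, 2057 and 1978 in the male hearts, a difference of -0.43 ± 0.091 (SE, adjusted p = 0.011). Ctss, the protease that trims the class II invariant chain, had 170.3, 215 and 338 in the female hearts and 390.1, 282, 437 and 364 in the male hearts, a difference of -0.74 ± 0.20 (SE, adjusted p = 0.0335). For B2m and Psme1 the groups did not overlap. For Ctss female replicate 2 lay above male replicate 2. H2-Q4, H2-Q6 and H2-Q7, class I heavy chains that lie side by side on chromosome 17, differed by -0.55 ± 0.15 (SE, adjusted p = 0.0299), -1.14 ± 0.29 (SE, adjusted p = 0.0256) and -1.18 ± 0.27 (SE, adjusted p = 0.0162), and these are near-identical copies whose reads may be split among them. Psme1 held whichever heart was left out. The adjusted p without male replicate 3 was 0.0753 for B2m, 0.114 for Ctss, 0.105 for H2-Q4, 0.101 for H2-Q6 and 0.0636 for H2-Q7.

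The called members of the list numbered 3 without male replicate 2, 1 without male replicate 3, 3 without male replicate 4, 3, 3, 5 and 3 without female replicates 1, 3, 5 and 6 and 21 without female replicate 2, and the list median stayed between -0.70 and -0.53 in these fits. With genes of like transcript length centred there were 6 called lower, with a median of -0.55. The summed level of the 26 genes was 17916 to 27080 in female and 28828 to 35656 in male Met/Met hearts. It was 16616 to 23084 in male Val/Val and 17588 to 20427 in male Val/Met hearts, so the male Met/Met hearts lay above all other male hearts. In female hearts it was 16995 to 24881 in Val/Val and 19259 to 34659 in Val/Met. The female Val/Met hearts were split, with 20160 and 19259 in replicates 1 and 5 and 32638.5 and 34659 in replicates 2 and 6.

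Leukocyte markers moved with these genes, and their part in the difference was not tested. Of 45 listed markers 26 were tested, of which 4 were called lower and 0 higher, beside 5.23% and 2.65% of all genes. The median of the markers was -0.56, against -0.21 in Val/Val and -0.045 in Val/Met hearts. Their summed level was 9073 to 14542 in female and 12685 to 16751 in male Met/Met hearts, which overlap through female replicate 2. Coro1a, an actin regulator of leukocytes, had 92.7, 121 and 181 in the female hearts and 259, 239, 277 and 258 in the male hearts, a difference of -1.05 ± 0.24 (SE, adjusted p = 0.0149). Laptm5, a lysosomal protein of leukocytes, had 313, 369.9 and 543 in the female hearts and 648, 568, 699 and 636 in the male hearts, a difference of -0.75 ± 0.21 (SE, adjusted p = 0.0363). Fcer1g, the signalling chain of Fc receptors, and Cd68, a macrophage lysosomal glycoprotein, differed by -0.996 ± 0.26 (SE, adjusted p = 0.0295) and -0.78 ± 0.24 (SE, adjusted p = 0.049). The macrophage genes Adgre1 and C1qc, at -0.58 ± 0.19 (SE, adjusted p = 0.0587) and -0.61 ± 0.21 (SE, adjusted p = 0.0711), missed the threshold. The adjusted p without male replicate 3 was 0.0535 for Coro1a, 0.108 for Laptm5, 0.0753 for Fcer1g and 0.146 for Cd68. Over the 10 fits that left out a heart, these genes lost their call in 1, 8, 8 and 9. The list had 1, 1, 0 and 1 members called without male replicates 1 to 4 in turn, 1 without each of female replicates 1, 3, 5 and 6, and 16 without female replicate 2.

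Of 51 genes of the interferon response 2 were called lower and 0 higher, with a median of -0.20. Of all genes 5.23% were called lower and 2.65% higher, so the list held no larger share of called genes than the whole. Cxcl9, a chemokine induced by interferon gamma, had 48.0, 55.5 and 67.7 in the female hearts and 111, 107, 148 and 121 in the male hearts, a difference of -1.11 ± 0.19 (SE, adjusted p = 0.00391) that held whichever heart was left out. Ifi27 had 281, 339.7 and 462 in the female hearts and 521, 491, 472 and 494 in the male hearts, a difference of -0.52 ± 0.12 (SE, adjusted p = 0.017). The GTPase Igtp missed the threshold, at -0.92 ± 0.29 (SE, adjusted p = 0.0528), although its groups did not overlap. Without male replicate 2 the adjusted p of Ifi27 was 0.0527.

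**Figure D4:**
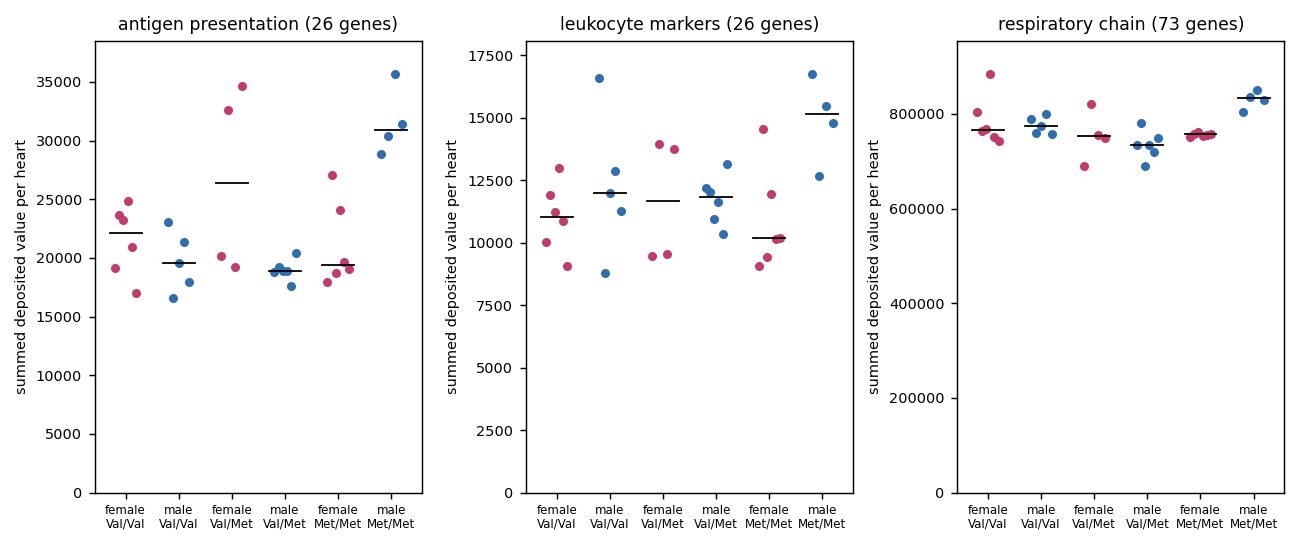
Summed deposited value per heart (y axis, from 0) of antigen presentation genes, leukocyte markers and respiratory chain genes in the 6 groups (x axis), 1 point per heart with the group median as a bar. The male Met/Met hearts sum to 28828 or more for antigen presentation, above all female Met/Met hearts, and to 804952 or more for the respiratory chain, where the female Met/Met hearts reach 760955.

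Promoter windows of genes from these lists are shown because the members moved together. The sequences are those of RefSeq for GRCm38.p6, 250 bases before to 50 after the start of a gene, and both strands were searched. The core of the interferon-stimulated response element was searched as TTCNNTTTC, which stands in the promoters of 9.76% of 27025 genes, in 23 of 34 matched interferon response genes, in 5 of 21 matched antigen presentation genes and in 4 of the 11 of those that were called lower. The same core stood in the promoters of 12 of 52 matched ribosomal protein genes, a share near that of antigen presentation. It also stood in 7 of 60 matched respiratory chain genes and 1 of 17 matched clock genes. In the sequences below the match is in capitals, and lower-case bases are its surroundings before the start.
B2m, chr2:122147518-122147586, plus strand: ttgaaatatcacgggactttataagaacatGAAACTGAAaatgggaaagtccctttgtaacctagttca
Ctss, chr3:95526735-95526785, plus strand: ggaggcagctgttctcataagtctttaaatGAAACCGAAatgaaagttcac
H2-T22, chr17:36042894-36042962, minus strand: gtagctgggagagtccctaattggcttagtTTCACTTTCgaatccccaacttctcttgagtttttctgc
The matches begin 139, 21 and 190 bases before the start of their genes, and that of Psme1 lies after its start. The core of the site of nuclear respiratory factor 1, searched as GCGCNTGCG, stands in the promoters of 7.12% of all genes, of 23 of 60 matched respiratory chain genes and of 9 of the 31 of those that were called lower. It is shown for the 1 of the 6 complex I genes named above that holds it before its start.
Ndufs5, chr4:123718245-123718313, minus strand: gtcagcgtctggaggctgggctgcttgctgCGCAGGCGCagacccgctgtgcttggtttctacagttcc
These 2 motifs overlapped in 0 of 32851 promoters. A match describes letters in a window and shows nothing on whether a factor was bound.

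The circadian clock turns on the activators Clock and Bmal1 and on an output layer in which Dbp and Tef activate and Nfil3 represses the same sites. In Met/Met hearts 1 of 20 clock genes was called higher in females and 2 lower (median -0.047). Clock had 1994, 3199 and 4010.1 in the female hearts and 2518, 1656, 1828 and 1968 in the male hearts, a difference of 0.65 ± 0.19 (SE, adjusted p = 0.0395). Tef had 2746, 3236 and 3657 in the female hearts and 4113, 4005, 4037 and 4051 in the male hearts, a difference of -0.35 ± 0.10 (SE, adjusted p = 0.0318). Without male replicate 2 the adjusted p was 0.123 for Clock, and without male replicate 3 it was 0.0834 for Tef. The time of day at which hearts were taken is not given in the sources used here.

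The sex difference itself was compared between genotypes by an interaction contrast. It differed between Met/Met and Val/Val hearts for 29 genes (0.223% of those tested) and between Met/Met and Val/Met hearts for 44 (0.338%). Both contrasts share the 10 Met/Met hearts. The clock list had 5 of its 20 genes among the former and 4 among the latter, and antigen presentation 0 and 7 of 26. For the respiratory chain these were 0 and 5 of 73, and for leukocyte markers 0 and 0 of 26. The female Val/Met hearts in the second contrast include replicates 2 and 6, with the high antigen presentation sums given above. The part of those hearts in its calls was not tested.

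Dbp gave the smallest p in both. It had 1107, 1325 and 1502 in the female hearts and 1216, 2026, 1538 and 1559 in the male hearts, so that the Met/Met sexes overlapped, with a difference of -0.25 ± 0.13 (SE, adjusted p = 0.185). In Val/Val hearts it was 3639.9 to 4368 in females and 862 to 1169 in males, and in Val/Met hearts 3451 to 3807 and 712 to 1018. Both Met/Met groups thus lay below every female heart of the other genotypes. The male Met/Met hearts lay above every male Val/Val heart, and of the female Met/Met hearts the lowest lay within the male Val/Val range. The sex difference in Met/Met hearts less that in Val/Val hearts was -2.23 ± 0.18 (SE, adjusted p = 3.13e-07), and less that in Val/Met hearts it was -2.27 ± 0.18 (SE, adjusted p = 4.02e-07).

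Both Met/Met groups lay below the females of the other genotypes for Tcap as well, which had 21314 to 27565 in female and 11211 to 13709 in male Val/Val hearts and 21193 to 24229 and 10939 to 12547 in Val/Met hearts. The difference between genotypes was -0.99 ± 0.12 (SE, adjusted p = 0.000483) against Val/Val and -0.98 ± 0.13 (SE, adjusted p = 0.000896) against Val/Met hearts. For Nfil3 both Met/Met groups lay above the females of the other genotypes. It had 243, 315 and 375 in the female hearts and 319, 246, 328 and 295 in the male hearts, while Val/Val hearts had 128 to 188 in females and 317 to 489 in males, and the difference between genotypes was 1.40 ± 0.20 (SE, adjusted p = 0.00293). Bhlhe40, a clock repressor, differed by -1.10 ± 0.17 (SE, adjusted p = 0.00293) and Tef by -0.66 ± 0.13 (SE, adjusted p = 0.0411), both against Val/Val hearts.

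Outside the clock, Cabp1, a calcium-binding protein that modulates channels, and Tmem44 had sex differences of 0.40 and 0.36 in Met/Met and of -0.95 ± 0.14 and -0.45 ± 0.082 (SE) in Val/Val hearts, with a difference between genotypes of 1.34 ± 0.20 (SE, adjusted p = 0.00293) and 0.80 ± 0.12 (SE, adjusted p = 0.00293). Against Val/Met hearts, Mcc, which was named for colorectal cancer, differed by 0.49 ± 0.081 (SE, adjusted p = 0.0158) and H2-Q6 by -2.39 ± 0.41 (SE, adjusted p = 0.0158). B2m, at -1.41 ± 0.25 (SE, adjusted p = 0.0187), and H2-Q7, at -2.16 ± 0.39 (SE, adjusted p = 0.0187), were called as well. Female Val/Met hearts had B2m values of 2655 to 5556 and male Val/Met hearts 2288 to 2541. The same contrast against Val/Val hearts gave -1.04 ± 0.25 (SE, adjusted p = 0.0877) for B2m and -1.77 ± 0.40 (SE, adjusted p = 0.0777) for H2-Q6, which missed the threshold.

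Among Dbp, Tef, Bhlhe40, Nfil3 and Clock, Tef alone holds the E-box CACGTG, the site of the clock activators, in the window before its start. It is shown because the clock list differed between genotypes. The E-box stands in the promoters of 8.09% of all genes and of 5 of 17 matched clock genes.
Tef, chr15:81802516-81802581, plus strand: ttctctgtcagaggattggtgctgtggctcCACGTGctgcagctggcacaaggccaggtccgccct
The match begins 127 bases before the start, and the E-box overlapped each of the other 2 motifs in 2 of 32851 promoters.

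**Figure D5:**
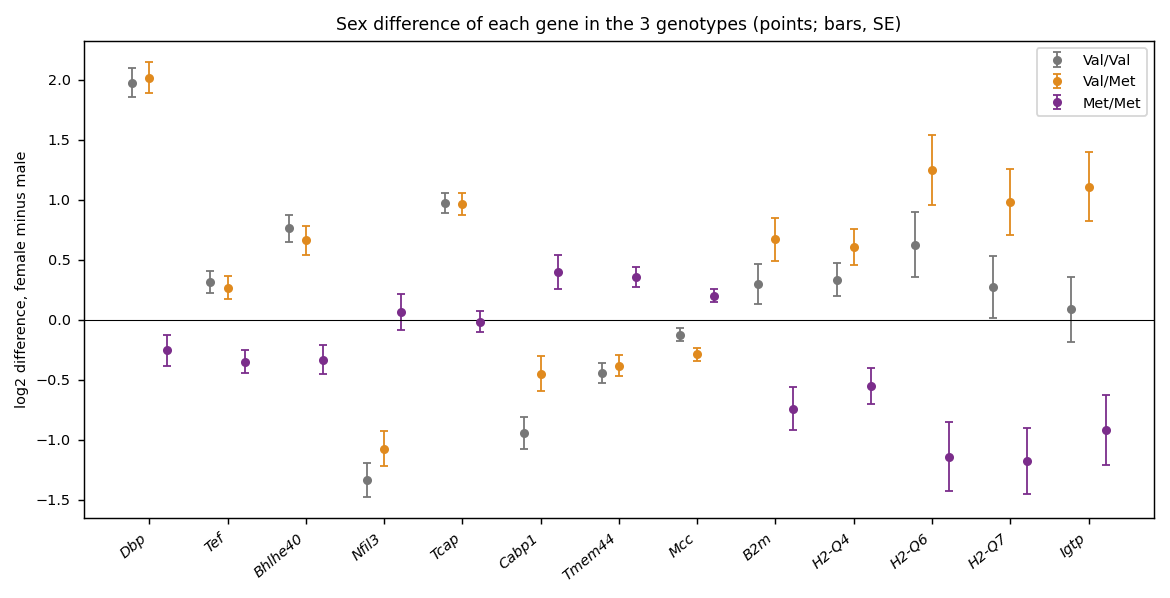
Log2 difference, female minus male (y axis), of 13 genes (x axis) by genotype (grey Val/Val, orange Val/Met, purple Met/Met), with SE bars. Dbp stands at -0.25 in Met/Met against 1.98 and 2.02 in the others, and B2m, H2-Q4, H2-Q6 and H2-Q7 lie below 0 in Met/Met and above 0 in the others.

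In the neurotrophin pathway 0 of 15 tested genes were called by limma. An unadjusted p under 0.05 was reached by 3 of the 15, against 3899 of all 13031 genes. Bdnf itself (chr2:109674700-109727007) had 162, 176 and 272 in the female hearts and 371, 240.3, 266 and 287 in the male hearts, a difference of -0.57 ± 0.20 (SE, adjusted p = 0.0779). Female replicate 3 lay within the male range and the other 5 below it, and the sex difference was -0.32 ± 0.19 in Val/Val and -0.43 ± 0.20 in Val/Met hearts (SE). The reads of the human coding sequence of the knock-in allele may not align to the mouse gene, so the level is not one of the protein's message alone. Sort1, which encodes sortilin, had 1182, 1378 and 1884 in the female hearts and 1461, 1547, 1491 and 1499 in the male hearts, a difference of -0.10 ± 0.11 (SE, adjusted p = 0.551). Ntrk2 and Ngfr, the genes of the receptors, were not analysed here.

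The list of sex steroid and nuclear hormone receptors had 2 of 19 members called, both lower, namely Hsd11b1 and Hsd17b4, a peroxisomal enzyme of fatty acid and steroid breakdown that differed by -0.21 ± 0.063 (SE, adjusted p = 0.0432) and had an adjusted p of 0.116 without male replicate 3. No gene was called by limma among glucocorticoid targets (20 tested, median 0.15), immediate early and heat shock genes (28, -0.064) or the cell cycle (23, -0.19). Of these lists 2, 6 and 3 genes had an unadjusted p under 0.05, against 3899 of all 13031 genes.

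Marker lists of other cell types were checked for unequal sampling of the heart. Blood cell markers had a median difference of -0.81 over 6 genes with 0 called and 2 at an unadjusted p under 0.05, and summed to 34753 to 127706 in female and 75735 to 185601 in male hearts. Atrial markers had -0.52 over 8 genes with 0 called and 1 at that p, and summed to 3563 to 5762 and 3539 to 10683. Fat cell markers (5 genes, 0.11), Schwann cell and neuron markers (4 genes, -0.22), epicardial markers (7 genes, 0.45) and cardiomyocyte markers (10 genes, -0.044) had 0 called, with 0, 0, 1 and 3 at that p. Over all 13031 genes, 3899 reached that p. Of the skeletal muscle markers 2 of 5 were called lower, Acta1 and Myl1. The lists of lung and of thymus markers were not analysed here. The part of these cells in the differences was not tested.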

How the data were processed

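RNA-Seq was performed on the whole hearts of 31 mice of 8 weeks. The deposited signal is the authors' normalised gene count, made per the study's methods with STAR and Partek on mm10. The submitters' processing notes name STAR 3.5.1a. Labels and methods name different RNA extraction and library kits. Within each group the deposited values have equal means in all sequencing projects, a step the sources used here do not describe. Depth in reads is unknown.

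Values were taken as log2(value + 0.0001) and fitted over all 31 hearts with limma 3.58.1 (lmFit, contrasts.fit, eBayes with a trend, R 4.3.3), with 1 mean per group and project and 2-sided tests, and p-values were adjusted by Benjamini and Hochberg over 13031 autosomal genes. Genes were matched to GENCODE M21, which left 268 of 13840 unmatched. The procedure was tested on simulated data.

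The members, the 31 lists, the tests and the rule for named genes were chosen with earlier results of these data known. The rule took 8 genes of the study's interest, the 10 largest rises and 10 largest falls among called protein-coding genes without overlap, the 6 members of smallest p of each list and the 5 genes of smallest p of each interaction, and the text gives 100 of the 193 tested. Alternatives were the offset, the minimum mean, the terms for project, their weights, a replicate block, fewer hearts, upper-quartile scaling, each heart left out and centring by transcript length. Some genes taken by the rule are not reported here.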

Additional observations from a re-analysis of the deposited data

Results flagged for a closer look

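Of the 200 sets of hearts examined, 1 for each named gene and Met/Met group, 6 held a heart far from the others of its group. All 6 were female sets. The usual rate of about 1 in 20 cannot be set beside this count. In the male sets replicate 4 lies at the group mean, which limits how far a male heart can stand apart, and the highest genes share values between hearts. They were Nppb in female replicate 2 (6209, with 3379 to the nearest heart of the group), Atp2a2 in female replicate 2 (588745, with 22984 to the nearest heart of the group), Sort1 in female replicate 4 (1884, with 450 to the nearest heart of the group), Marcksl1 in female replicate 2 (89.9, with 22.6 to the nearest heart of the group), Ctss in female replicate 2 (338, with 114 to the nearest heart of the group) and Laptm5 in female replicate 2 (543, with 144 to the nearest heart of the group). Female replicate 2 was the heart in 5 of the 6.

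The sex difference in Met/Met hearts differed by an interaction contrast from that in both other genotypes for 6 named genes. On the log2 scale, against Val/Val and Val/Met hearts, the differences between genotypes were -0.99 and -0.98 for Tcap, -0.66 and -0.62 for Tef, -1.10 and -0.99 for Bhlhe40, -2.23 and -2.27 for Dbp, 1.40 and 1.14 for Nfil3 and 0.80 and 0.74 for Tmem44. Against Val/Val hearts alone the contrast was called for Cabp1 (1.34). Against Val/Met hearts alone it was called for Ndufa3 (-0.58), Rpl10a (-0.50), Psme1 (-0.62), H2-Q7 (-2.16), H2-Q6 (-2.39), H2-Q4 (-1.16), B2m (-1.41), Cxcl9 (-1.34), Igtp (-2.03), Cryab (-0.42) and Mcc (0.49). A call against 1 genotype and not the other does not show that the 2 differ, which was not tested.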

How the results depend on the processing

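All 1027 called genes kept their direction under each of the alternatives in which they were tested, and so did every called gene named in the text. For several alternatives this was fixed in advance, because the batch means of a group are equal and the log2 differences stay the same. These were the fits with no term for the project, with projects weighted equally, with Met/Met hearts alone, within the first project and without male replicate 4. Leaving out any other heart could not reverse the 827 called genes without overlap either. Of the named genes that were not called, Tcap, Nppb, Nfil3 and Myl2 changed sign. Tcap was at 0.075 with the replicate block and 0.12 with length centring, Nppb at 0.00028 and Myl2 at 0.034 with length centring. Leaving out each heart in turn took Tcap from -0.094 to 0.072, Nppb from -0.44 to 0.00029 and Nfil3 from -0.024 to 0.13. The counts depended on how the projects entered the fit. With 1 mean per group and no term for the project 3561 genes were called, with 725 and 819 for the differences from Val/Val and Val/Met hearts, 36 ribosomal and 23 antigen presentation genes lower. With the projects weighted equally these were 349, 9, 17, 3 and 3, with 22 respiratory chain genes. Within the first project they were 2 genes called and 0, 0 and 0 members of the 3 lists, and 357 genes by p and 1.5-fold. That count was 322 with an offset of 29 and 143 with a minimum mean of 290, where 8251 genes were tested. Centring by transcript length, chosen after the data were seen, gave 678 genes called, 18 for the difference from Val/Met hearts and 10 respiratory chain, 3 ribosomal and 6 antigen presentation genes.

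Leaving out each heart in turn gave 238 to 2134 genes called, 442 to 937 by p and 1.5-fold, 8 to 41 and 11 to 94 for the differences from Val/Val and Val/Met hearts, 12 to 39 respiratory chain, 2 to 23 ribosomal and 1 to 21 antigen presentation genes. Where a fit left 3 male hearts without replicate 4, its project dropped out of the Met/Met hearts.

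With the replicate number as a block, 34 genes were called, 10 and 2 for the differences from Val/Val and Val/Met hearts and 0, 0 and 0 of the respiratory chain, ribosomal and antigen presentation genes. Same-numbered hearts of the first project correlated at 0.198, 0.244 and -0.177, and female replicate 3 with male replicate 1 at 0.331. With so few pairs, and values centred on the mean of each group, this cannot show whether the numbers pair the hearts. Neither depth in reads nor its effect on low genes could be assessed from normalised values.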
